A study of Mus musculus with 12 samples.

Results

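Crypt base stem cell markers are 10 genes chosen by name, *Lgr5*, *Olfm4*, *Ascl2*, *Smoc2*, *Tnfrsf19*, *Mex3a*, *Cd44*, *Prom1*, *Sox9* and *Msi1*, and all 10 have a row among the 34245 genes of the count table. They were measured by RNAseq of poly(A)+ RNA in 4 groups of 3 libraries: stem cells of the small intestine (ISC) and enterocytes of the adult villus (AE), each from young mice of about 8 months and from aged mice of about 27 months. All mice were males of the C57BL/6 Lgr5-GFP strain, in which EGFP and CreERT2 were knocked into the *Lgr5* gene, an allele known to be silent in part of the crypts, and the labels name no treatment. ISC were sorted from crypt suspensions as live GFP-high cells, and AE from villus suspensions as live Epcam-high cells negative for CD31 and CD45. GFP here follows the *Lgr5* promoter, so that *Lgr5* itself was used to choose the ISC and its difference between ISC and AE is given only as a description. Libraries are called by the codes of their columns, Y1, Y2 and Y3 for young and O1, O3 and O5 for aged mice, each code standing for an ISC and an AE library. In 8 of the 12 sample titles the code goes with the description of another group, so that each column was placed by the cell type and age in its own name alone. Ages were given for 3 mice of each cohort, as many as a group has libraries, but not which library came from which mouse, and if libraries shared a mouse, P-values measure only the spread between these libraries.

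Stem cells at the base of the crypt divide throughout life and feed the villus with new cells, and they are held in this state by Wnt signals, which R-spondins strengthen through Lgr5 and its relatives. Daughters that leave the base first divide further as transit amplifying cells and then turn into enterocytes, goblet, enteroendocrine or tuft cells on their way up, or into Paneth cells at the base. Some of the 10 genes are known mainly from the stem cell itself (*Lgr5*, *Olfm4*, *Ascl2*, *Smoc2*), whereas *Cd44*, *Prom1*, *Sox9* and *Msi1* are also known from other cells of the crypt. This division was not fixed before the values were seen and was not tested.

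RefSeq promoter windows on GRCm38.p6, from 250 bases before to 50 bases after a transcription start, were matched for 6 of the 10 genes (*Cd44*, *Mex3a*, *Prom1*, *Ascl2*, *Tnfrsf19* and *Olfm4*, 8 windows in all) and not for *Lgr5*, *Smoc2*, *Sox9* and *Msi1*. They were searched on both strands for CTTTGAA and CTTTGAT, the core letters of TCF and LEF factors of the Wnt pathway, and for CAGCTG, an E box of bHLH factors such as Ascl2. Of all 32851 windows in the table, 5.14% hold CTTTGAA, 3.73% hold CTTTGAT and 16.3% hold CAGCTG. Only the downstream window of *Tnfrsf19*, at a start inside the gene, held any of them, CTTTGAT from position -202 and CAGCTG from position -10 relative to the start. Below it is set beside the windows of *Olfm4*, the most abundant member, and *Ascl2*, the bHLH factor of the list, both at the start that the count table gives. The 3 are printed to show members that stand together in the results beside their base composition. GC content was 52.3% for *Olfm4*, 67% for *Ascl2* and 60.7% for the downstream window of *Tnfrsf19*, where the median window had 52.7%. The other window of *Tnfrsf19*, not printed, had 51%. Sequences run 5′ to 3′ on the strand of the gene, and capitals mark the motifs found, CTTTGAT lying on the other strand and thus reading ATCAAAG.
Olfm4, chr14:80000052-80000351, plus strand: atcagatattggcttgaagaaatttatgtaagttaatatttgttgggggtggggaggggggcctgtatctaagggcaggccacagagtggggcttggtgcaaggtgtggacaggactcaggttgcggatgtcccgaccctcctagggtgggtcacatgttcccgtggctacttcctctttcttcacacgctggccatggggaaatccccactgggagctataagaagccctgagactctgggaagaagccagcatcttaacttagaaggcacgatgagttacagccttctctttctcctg
Ascl2, chr7:142969215-142969514, minus strand: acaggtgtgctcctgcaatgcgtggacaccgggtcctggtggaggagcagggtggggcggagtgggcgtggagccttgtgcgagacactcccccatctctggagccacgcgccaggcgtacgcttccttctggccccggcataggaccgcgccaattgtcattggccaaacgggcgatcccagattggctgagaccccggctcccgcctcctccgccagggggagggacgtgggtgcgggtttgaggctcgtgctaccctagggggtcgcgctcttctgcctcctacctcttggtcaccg
Tnfrsf19, chr14:61037938-61038237, minus strand: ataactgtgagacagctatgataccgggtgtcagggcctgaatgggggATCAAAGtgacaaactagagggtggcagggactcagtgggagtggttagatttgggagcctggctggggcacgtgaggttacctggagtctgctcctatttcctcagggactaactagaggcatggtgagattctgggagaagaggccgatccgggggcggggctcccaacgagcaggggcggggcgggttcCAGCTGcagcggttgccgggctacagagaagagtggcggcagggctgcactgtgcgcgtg

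The libraries held between 11893817 and 110794420 counts, the largest being Y3 AE, and the 10 genes took between 1058 and 165195 counts of a library. Values are CPM, the counts of a gene per 1000000 counts of a library total scaled by its TMM factor, and 3 counts, taken as the limit of detection, were between 0.0359 and 0.327 CPM, which covers counting error only. The sorts were described by markers listed by name, the lists having been chosen with earlier results of these data known. The 18 enterocyte markers summed to between 80349 and 127214 CPM in AE and between 2032 and 10917 CPM in ISC, highest in Y3 ISC. AE also held goblet cell transcripts, 8 markers of which summed to between 28111 and 57142 CPM with *Fcgbp* and *Zg16* the most abundant, and transcripts of enteroendocrine cells, 10 markers of which summed to between 3453 and 12471 CPM. ISC held Paneth cell transcripts, 10 markers of which, led by *Lyz1* and *Defa24*, summed to between 605 and 1751 CPM. In ISC the goblet cell markers summed to between 1342 and 2211 CPM and the enteroendocrine markers to between 276 and 954 CPM. In such bulk samples, fewer cells of a type and less RNA per cell cannot be told apart.

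All 10 genes were higher in ISC than in AE, in young and in aged mice, and the ISC and AE libraries of an age did not overlap for any of them. Their median log2 fold change of ISC over AE was 4.38 in young and 5.57 in aged mice, where the median of all genes tested was -0.15 and 0.13. Single fold changes are given below as log2 values of ISC over AE ± their standard error. In edgeR's quasi-likelihood test, 10 of 10 had an FDR under 0.05 in this direction at each age. Among all genes tested this was so for 25.4% of 16681 in young and 34.1% of 15855 in aged mice, and the libraries did not overlap, with ISC higher, for 30.7% and 36.4%. As *Lgr5* chose the ISC, 9 of these 10 calls are measurements that the sort did not use directly. With single libraries left out, the median of the 10 genes in young mice was 5.55 without Y2 AE and 3.85 without Y3 AE. Scaling by upper-quartile factors moved the median of all genes to -0.028 in young mice, a shift of over 0.1, and to 0.22 in aged mice, and the median of the 10 genes to 4.49 and 5.67.

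**Figure D1:**
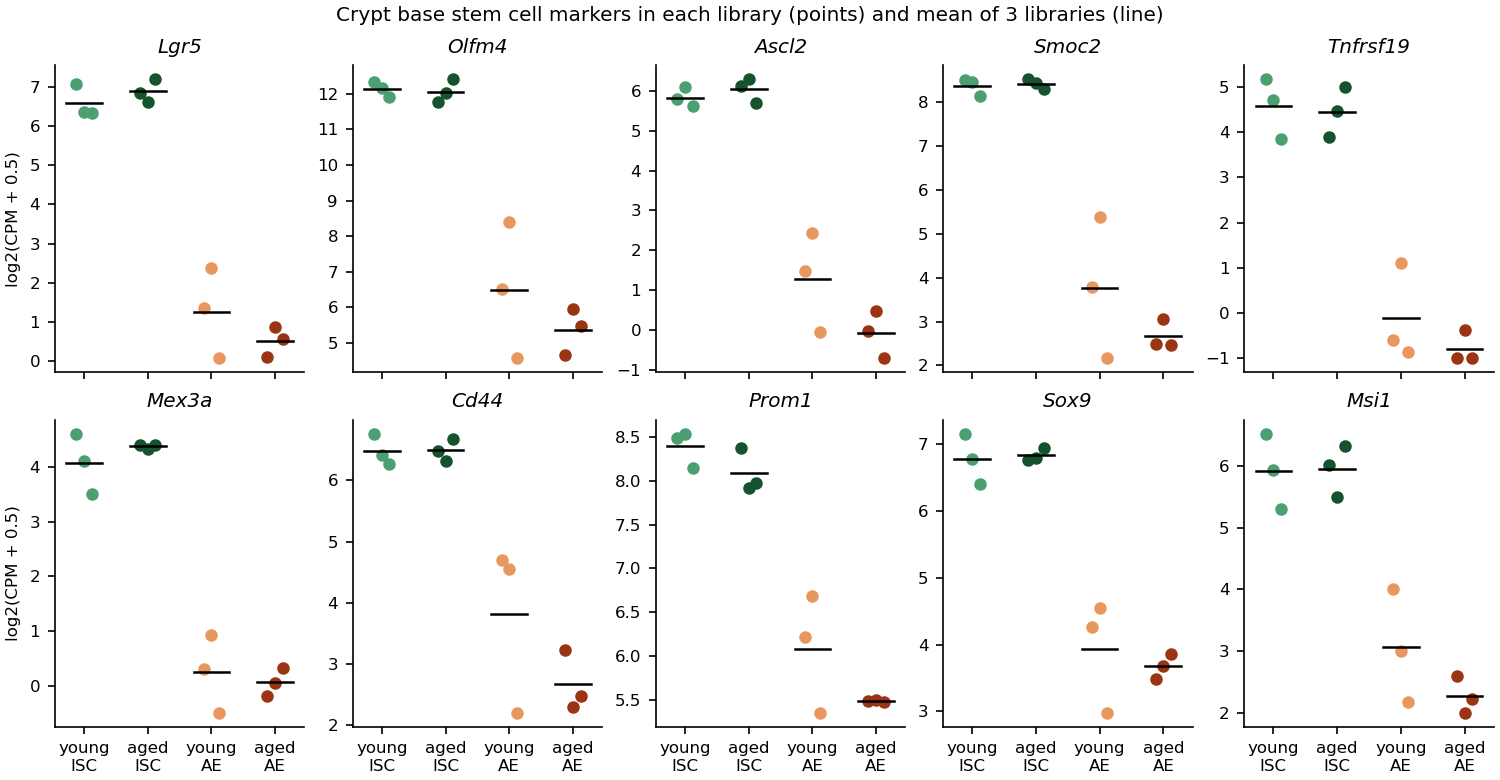
Level of each of the 10 genes in each of the 12 libraries, as log2(CPM + 0.5), with points for libraries and a line for the mean of the 3 libraries of a group (scales differ between panels). For every gene the 6 ISC libraries lie above the 6 AE libraries, and on this scale the 3 young AE libraries span a wider range than the 3 aged ones for all 10 genes.

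*Lgr5* (chr10:115450311-115587780, minus strand), the R-spondin receptor that names these cells, had 135, 81.5 and 79.7 CPM in Y1, Y2 and Y3 ISC and 113, 98.1 and 146 CPM in O1, O3 and O5 ISC. In the AE libraries of the same codes it had 2.05, 4.72 and 0.55 and 0.571, 1.34 and 0.982 CPM. These AE values rest on few counts, 25, 57 and 46 in young and 6, 15 and 9 in aged mice. Young and aged ISC overlapped, and the highest AE value, in Y2, stood far below the lowest of ISC. The log2 fold change of ISC over AE was 5.50 ± 0.72 in young and 7.00 ± 0.30 in aged mice.

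*Tnfrsf19* (chr14:60963875-61046490, minus strand), which encodes the TNF receptor family member Troy, was a rare transcript, with 35.4, 25.6 and 13.8 CPM in young and 14.3, 21.7 and 31.4 CPM in aged ISC. The AE libraries held 2, 20 and 4 counts in young and 0, 3 and 0 counts in aged mice, so that most were at the limit of detection. The log2 fold change was 5.80 ± 1.07 (FDR = 0.00244) in young mice. All aged AE libraries were at 3 counts or fewer, against which the level in aged ISC was at least 76.4-fold higher (mean of the 3 libraries over the mean of 3 counts per library). With the young AE library Y2 left out, in which 20 of the counts lay, the young value was 8.53, and its size is little constrained by so few counts.

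*Cd44* (chr2:102811141-102901665, minus strand) encodes a hyaluronan receptor and is a Wnt target of the crypt that leukocytes express as well. It was found at 108, 84.5 and 76.4 CPM in young ISC and at 88.9, 79 and 102 CPM in aged ISC. In AE it stood at 25.4, 23 and 4.08 CPM in Y1, Y2 and Y3 and at 8.85, 4.39 and 5.02 CPM in O1, O3 and O5. Y1 and Y2 AE thus held more than 2 times the level of any other AE library. The log2 fold change of ISC over AE was 2.38 ± 0.58 (FDR = 0.00927) in young and 3.96 ± 0.26 (FDR = 1.34e-06) in aged mice. The 10 markers of intraepithelial lymphocytes summed to 55.1, 24 and 18.1 CPM in young AE and 56.8, 29.6 and 19.7 CPM in aged AE, highest in Y1 and O1. The AE sort took only cells without CD45, the surface protein of leukocytes, and the part of these transcripts in the *Cd44* values was not tested.

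*Prom1* (chr5:43993620-44102032, minus strand), the gene of the membrane glycoprotein prominin-1 (CD133), had 358, 370.4 and 283 CPM in young ISC and 330.1, 240.4 and 250.2 CPM in aged ISC. It was at 74.2, 102 and 40.5 CPM in young AE and at 44.3, 44.7 and 44.3 CPM in aged AE, where the 3 libraries were nearly equal. This was the smallest difference between ISC and AE of the 10 genes at both ages, with a log2 fold change of 2.22 ± 0.33 (FDR = 9.36e-04) in young and 2.69 ± 0.18 (FDR = 1.48e-06) in aged mice.

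Secreted proteins of the list are olfactomedin-4 and Smoc2. *Olfm4* (chr14:80000302-80021930, plus strand), for the former, a glycoprotein, had 5169.6, 4560.0 and 3839 CPM in young ISC and 3459.7, 4161 and 5446 CPM in aged ISC. It alone made up between 74.6% and 83% of the summed CPM of the 10 genes, not scaled to length, in an ISC library, and between 24.6% and 61.7% in an AE library. In AE it had 90.1, 338 and 23.1 CPM in young and 24.7, 61.2 and 44.3 CPM in aged mice, with Y2 more than 3 times above every other AE library. ISC over AE came to 4.91 ± 0.91 (FDR = 0.00252) in young and 6.71 ± 0.44 (FDR = 1.33e-06) in aged mice.

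*Smoc2* (chr17:14279506-14404790, plus strand), for a calcium-binding protein of the extracellular matrix, stood at 362, 349.8 and 282 CPM in young and 366, 348 and 315 CPM in aged ISC. The 6 ISC libraries were close, with a coefficient of variation of 13% in young and 7.63% in aged mice. AE held 13.3, 40.9 and 3.97 CPM in young and 5.14, 7.8 and 5.02 CPM in aged mice, again with Y2 above the rest, and the log2 fold change was 4.12 ± 0.75 (FDR = 0.00236) and 5.90 ± 0.25 (FDR = 3.25e-07).

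Of the transcription factors, *Ascl2* (chr7:142966829-142969264, minus strand), a bHLH factor that holds crypt base cells in the stem cell state, had 55.1, 67.9 and 48.5 CPM in young ISC and 69.1, 78.1 and 51.9 CPM in aged ISC. The AE libraries held 28, 59 and 39 counts in young and 5, 10 and 1 counts in aged mice, which are 2.29, 4.88 and 0.466 and 0.476, 0.896 and 0.109 CPM. It thus went from a moderate level in every ISC library to a few CPM or less in AE, with log2 fold changes of 4.64 ± 0.73 (FDR = 0.00121) and 7.06 ± 0.39 (FDR = 6.11e-07). *Sox9* (chr11:112782224-112787760, plus strand), an HMG box factor that Paneth cells need as well, was at 143, 109.7 and 84.8 CPM in young ISC and 108, 110.96 and 123 CPM in aged ISC. In AE it kept 18.8, 22.9 and 7.39 CPM in young and 10.7, 12.4 and 14.1 CPM in aged mice, and the log2 fold changes were smaller, 2.8 ± 0.41 (FDR = 9.33e-04) and 3.28 ± 0.17 (FDR = 4.71e-07).

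*Mex3a* and *Msi1* encode RNA-binding proteins, and they too differed in how much AE retained. *Mex3a* (chr3:88532395-88541396, plus strand) had 23.8, 16.6 and 10.8 CPM in young ISC and 20.5, 19.5 and 20.6 CPM in aged ISC. AE held 9, 17 and 18 counts in young and 4, 6 and 7 counts in aged mice, and the log2 fold change was 4.69 ± 0.67 (FDR = 8.10e-04) in young and 5.24 ± 0.28 (FDR = 5.01e-07) in aged mice. *Msi1* (chr5:115429599-115455698, plus strand), which encodes Musashi-1, had 91.9, 60.9 and 38.9 CPM in young and 64.2, 44.8 and 79.6 CPM in aged ISC. With 15.5, 7.53 and 4.01 CPM in young and 5.52, 3.49 and 4.14 CPM in aged AE, *Msi1* gave 2.85 ± 0.52 (FDR = 0.00235) and 3.91 ± 0.26 (FDR = 1.48e-06). Y1 was the highest of the young libraries for *Msi1* in ISC and in AE.

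**Figure D2:**
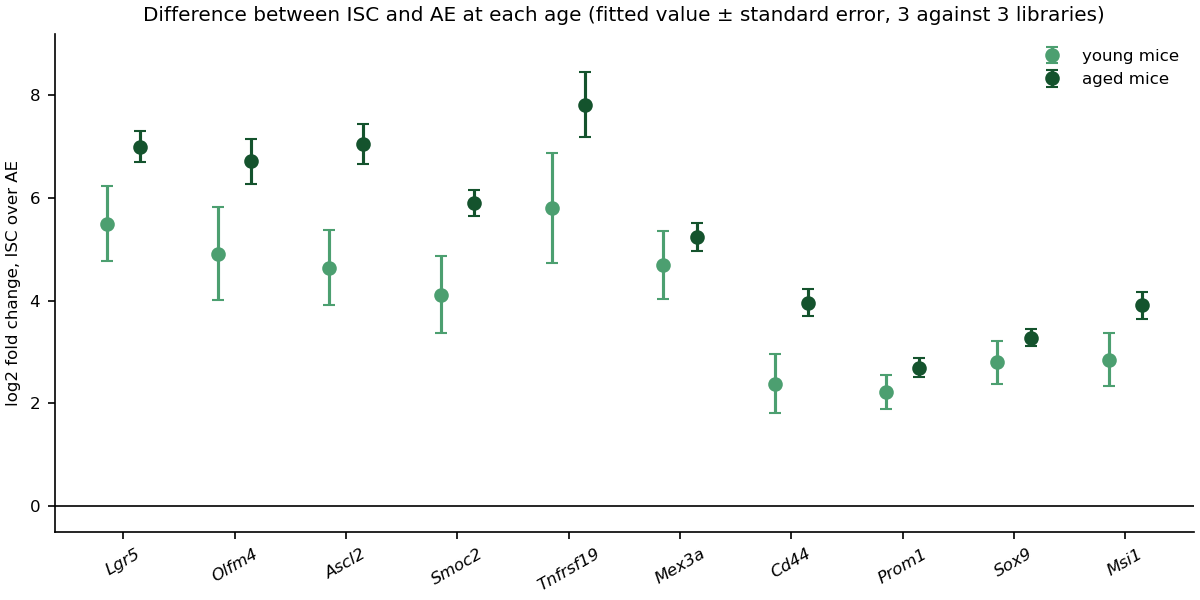
Log2 fold change of ISC over AE for each of the 10 genes in young and in aged mice, with the standard error from edgeR (3 against 3 libraries). All values lie above 0, from 2.22 for *Prom1* in young mice to 7.82 for *Tnfrsf19* in aged mice, the latter a fitted value against libraries at the limit of detection, and the standard errors are wider in young mice.

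Levels of different genes can be set side by side only per length, here as CPM per kilobase of merged exons. On this scale *Olfm4* was at 2758 ± 406 (SD, n = 3 libraries) in young ISC, above all other members in every ISC library, since *Smoc2* followed at 47.7 ± 6.2. *Prom1* (47 ± 6.62), *Ascl2* (35.2 ± 6.1) and *Sox9* (27.2 ± 7.03) came next, each overlapping with its neighbour in this order over the libraries. A step below stood *Cd44* (13.3 ± 2.46), *Msi1* (11 ± 4.59) and *Lgr5* (9.61 ± 3.06), which overlapped likewise, and last *Tnfrsf19* (5.26 ± 2.28) and *Mex3a* (2.96 ± 1.12). In aged ISC *Ascl2* came before *Prom1* and *Lgr5* before *Msi1*, and in both cases the neighbours overlapped. In aged AE the order was another, with *Olfm4* (26.5 ± 11.1), *Prom1* (6.19 ± 0.033) and *Sox9* (2.99 ± 0.413) each clear of the next, and *Lgr5* (0.0941 ± 0.0377) ninth. The merged exons of *Lgr5* are 10264 bases long and those of *Olfm4* 1640, and a union over many transcripts lowers the value of a gene whose cells use a short one.

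How much of each gene was left in AE was described as the CPM of an AE library as a percentage of the mean of the 3 ISC libraries of its age. *Lgr5* was left at 2.07, 4.78 and 0.557% in Y1, Y2 and Y3 AE and at 0.479, 1.13 and 0.824% in O1, O3 and O5 AE, and *Olfm4* at 1.99, 7.47 and 0.511% and 0.568, 1.41 and 1.02%. *Ascl2* was left at 4.01, 8.54 and 0.816% and 0.717, 1.35 and 0.164%. Both *Smoc2* (4.0, 12.4 and 1.2% in young, 1.5, 2.27 and 1.46% in aged AE) and *Mex3a* (4.31, 8.23 and 1.26% and 1.89, 2.66 and 3.78%) kept a little more than *Lgr5* and *Olfm4* in every AE library. They also kept more than *Ascl2*, except *Smoc2* in Y1 and *Mex3a* in Y2. *Tnfrsf19* kept between 0 and 6.64%.

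The other 4 genes, set apart here only after their values were seen, are given as a description. *Prom1* kept 22, 30.4 and 12% in young and 16.2, 16.3 and 16.2% in aged AE, and *Sox9* 16.7, 20.4 and 6.58% and 9.33, 10.8 and 12.3%. *Cd44* kept 28.3, 25.6 and 4.54% and 9.83, 4.88 and 5.58%, and *Msi1* 24.3, 11.8 and 6.27% and 8.78, 5.56 and 6.59%. The lowest of these values, 4.54% for *Cd44* in Y3 AE, lay below those of *Olfm4*, *Ascl2*, *Smoc2*, *Tnfrsf19*, *Mex3a* and *Lgr5* in Y2 AE, so that the 10 genes can be ranked only within a library. Within a library, the 4 stood above the other 6 in 5 of the 6 AE libraries. Y2 was the exception, with *Smoc2* at 12.4% above *Msi1* at 11.8%.

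**Figure D3:**
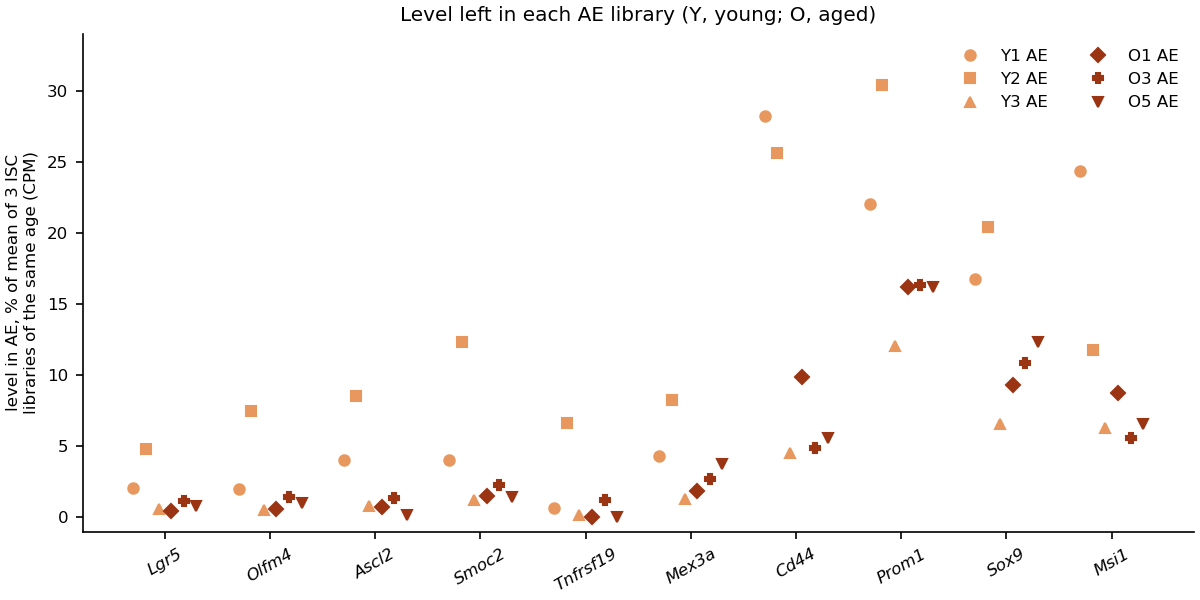
CPM of each of the 10 genes in each AE library as a percentage of the mean of the 3 ISC libraries of the same age, with 1 symbol per library. From *Lgr5* to *Mex3a* the values are at most 12.4%, and Y2 AE is the highest library for those 6 genes, whereas *Cd44* to *Msi1* run from 4.54% up to 30.4%.

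The young AE libraries thus differed in how much of these genes they held. The median over the 10 genes was 4.16% in Y1, 10.2% in Y2 and 1.23% in Y3, against 1.69%, 2.47% and 2.62% in the aged AE libraries. All 10 genes were lowest in Y3 among the young AE libraries, and 8 were highest in Y2 and 2, *Cd44* and *Msi1*, in Y1. Other crypt genes were spread alike over these libraries. The 16 proliferation markers had a median of 8.79%, 26.2% and 3.44% in Y1, Y2 and Y3 AE, all 16 being highest in Y2, and summed to 201, 589.6 and 114 CPM. The Paneth cell markers summed to 97.6, 253 and 68.1 CPM in Y1, Y2 and Y3 AE. The part of these other crypt transcripts in the values of the 10 genes was not tested.

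Within a library, the members can also be set against each other by their raw counts. *Olfm4* had between 30.5 and 56 counts for each count of *Lgr5* in the 6 ISC libraries and between 42 and 71.6 in the 6 AE libraries, which overlap although both genes were at most 7.47% of their ISC level there. The ratio of *Ascl2* to *Lgr5* overlapped likewise, with 0.355 to 0.833 in ISC and 0.111 to 1.12 in AE. For *Smoc2* it was 2.16 to 4.29 in ISC and 5.11 to 9.0 in AE, without overlap. *Prom1* had 1.71 to 4.55 counts per count of *Lgr5* in ISC and 21.7 to 77.7 in AE, and *Sox9* 0.844 to 1.35 and 4.86 to 18.7. *Cd44*, *Msi1* and *Mex3a* were also higher relative to *Lgr5* in every AE library than in any ISC library. Ratios in AE rest on as few as 6 counts of *Lgr5*, in O1. As *Lgr5* was used to choose the ISC, ratios to it are not independent of the sort and are given only as a description.

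The aged and young ISC libraries address whether the markers differ with age among cells sorted as GFP-high. As GFP follows the *Lgr5* promoter, the age difference of *Lgr5* in ISC is not independent of the sort and is given only as a description. None of the 10 genes was called in edgeR's quasi-likelihood test, with an FDR of 1.00 for all 10, and the aged and young libraries overlapped for all 10. Of all 15552 genes tested, 0% were called, 4.47% had an unadjusted P under 0.05 and the groups did not overlap for 8.86%. Of the 10 genes, 0 had an unadjusted P under 0.05. DESeq2 called 58 genes, of which 0 were among the 10. The median log2 fold change of aged over young was 0.022 for the 10 genes and 0.012 for all genes tested.

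The precision of these values differed between the genes. For *Smoc2* the log2 fold change was 0.057 with a 95% interval of -0.30 to 0.41, and for *Cd44* it was 0.012 with an interval of -0.38 to 0.40. *Olfm4* was at -0.045 (-0.51 to 0.42) and *Sox9* at 0.032 (-0.41 to 0.47). The bounds of these intervals all lie within 1 unit of 0 on the log2 scale. *Lgr5* had the highest value, 0.28 (-0.26 to 0.82), with *Mex3a* at 0.25 (-0.34 to 0.84) and *Ascl2* at 0.22 (-0.21 to 0.66). *Prom1* had the lowest, -0.29 (-0.71 to 0.12). The widest intervals were those of *Tnfrsf19*, at -0.14 (-0.98 to 0.70), and *Msi1*, at -0.012 (-0.72 to 0.69).

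Young ISC libraries differed among themselves in a common direction. All 10 genes were lowest in Y3 ISC, and 8 were highest in Y1 and the other 2, *Ascl2* and *Prom1*, in Y2. From Y1 to Y3 ISC the difference was 91.9 against 38.9 CPM for *Msi1* and 35.4 against 13.8 CPM for *Tnfrsf19*, but 362 against 282 CPM for *Smoc2*. In Y3 ISC 17 of 18 enterocyte markers were the highest of the 3 young ISC libraries, and they summed to 10917 CPM there against 4825 in Y1 and 4455 in Y2. Paneth cell markers ran the other way, with 1751, 1063 and 605 CPM in Y1, Y2 and Y3 ISC. In aged over young ISC, 18 of 18 enterocyte markers were below 0, with a median of -0.94 and 0 called. Before adjustment, 8 of the 18 had P under 0.05 by edgeR, and for 8 all aged libraries lay below all young ones. Among all genes tested in ISC, 4.47% reached such a P and the groups did not overlap, in either direction, for 8.86%. The ISC sort had no stain for CD45. Of the 9 intraepithelial lymphocyte markers tested, 8 were below 0 in aged over young ISC, with a median of -3.24 and 0 called. Before adjustment, 5 had P under 0.05 by edgeR, and for 5 all aged libraries lay below all young ones. The 10 lymphocyte markers summed to 22.1, 9.31 and 10.3 CPM in young and 3.7, 4.91 and 3.06 CPM in aged ISC. In O5 ISC 7 of them had 0 counts. The part of enterocyte, Paneth cell and lymphocyte transcripts in the values of the 10 genes was not tested. Without Y3 the median log2 fold change of aged over young ISC was -0.11, and without Y1 it was 0.19, with 0 of 10 genes called in either case. *Lgr5* was then at 0.15 and 0.57. Without Y1 ISC, *Lgr5* had an unadjusted P of 0.022 by edgeR and *Mex3a*, at 0.56, one of 0.040. In that fit 547 of 15370 genes tested had an unadjusted P under 0.05.

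In AE, all 10 genes had a lower mean in aged than in young libraries, with a median log2 fold change of -1.37 where all genes tested had -0.042. None was called, with FDR from 0.833 to 0.945 in edgeR's quasi-likelihood test, and for all 10 the young and aged libraries overlapped. Over all 16265 genes tested, 0% were called, 4.97% had an unadjusted P under 0.05 and groups did not overlap for 10.9%. Of the 10 genes, 4 had an unadjusted P under 0.05: *Cd44* at -1.48, *Ascl2* at -2.26, *Smoc2* at -1.66 and *Prom1* at -0.68. *Olfm4* was at -1.78 (-3.56 to 0.014) and *Lgr5* at -1.27 (-3.03 to 0.50). DESeq2 called 18 genes and 0 of the 10. Some other marker lists also leaned to 1 side between these libraries. Log2 fold changes were below 0 for 16 of 16 proliferation markers, with a median of -1.42 and 4 genes at an unadjusted P under 0.05. They were also below 0 for 8 of 8 tuft cell markers, with a median of -0.57 and 0 genes at such a P. They were above 0 for 18 of 18 enterocyte markers, with a median of 0.29 and again 0 genes at such a P. No gene of these lists was called, and their part in the values of the 10 genes was not tested.

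These values rested on the young AE libraries Y1 and Y2, as Y3 was no higher than the highest aged library for any of the 10 genes. Y3 AE had 0.55 CPM of *Lgr5* and 23.1 CPM of *Olfm4*, below the lowest aged library for both. It was likewise below all aged AE libraries for *Smoc2*, *Mex3a*, *Cd44*, *Prom1* and *Sox9*, and within their range for *Ascl2*, *Tnfrsf19* and *Msi1*. Without Y2 the median over the genes fitted was -0.34, and *Lgr5*, *Olfm4* and *Smoc2* were at -0.30, -0.34 and -0.46, with *Tnfrsf19* under the filter on low counts. Without Y3, the deepest library, the median was -1.87, with 0 of 10 genes called and a lowest FDR of 0.161 among them. Over all alternatives run for AE the lowest FDR of a member was this value and the highest 1.00.

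**Figure D4:**
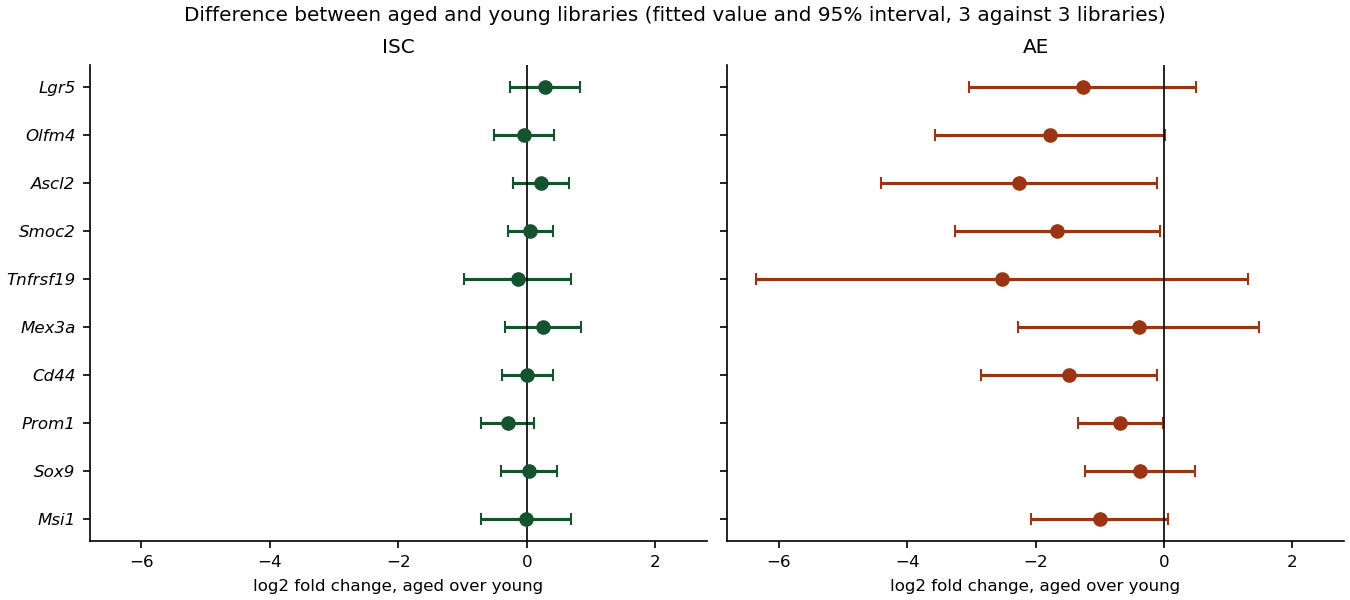
Log2 fold change of aged over young libraries for each of the 10 genes in ISC (left) and AE (right), with the 95% interval from edgeR (3 against 3 libraries). In ISC all values lie between -0.29 and 0.28 and all intervals include 0, whereas in AE all values lie under 0 with wide intervals, those of 4 genes leaving out 0 before adjustment.

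The age effects of ISC and AE were compared in a fit on all 12 libraries. The difference, ISC less AE, was above 0 for 10 of 10 genes, with a median of 1.44 where all 17377 genes tested had 0.087. Proliferation markers shared this, with 16 of 16 above 0 and a median of 1.37, whereas 18 of 18 enterocyte markers were below 0, with a median of -1.10 and 9 genes at an unadjusted P under 0.05. Among the 10 genes it ranged from 0.40 ± 0.38 for *Prom1* to 2.32 ± 0.98 for *Ascl2*. No member was called, with FDR at 1.00 for all, and 0.00575% of all genes were. An unadjusted P under 0.05 was seen for 2 of the 10 genes, *Ascl2* and *Smoc2*, and for 4.36% of all genes. With the code shared by ISC and AE libraries as a replicate block, 21 genes were called in place of 1, of which 0 were among the 10, and the median of the 10 genes was 1.09. Without Y2 AE it was 0.33. The same libraries give the larger differences between ISC and AE in aged mice described above, which are therefore not a separate observation.

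Beside the 10 markers, 18 other genes known from crypt base stem cells or from the Wnt pathway active there were listed by name. In young mice 16 of 18 were higher in ISC and 0 lower with an FDR under 0.05, and in aged mice 17 and 0, with medians of 3.22 and 3.68. Among all genes tested, 25.4% of 16681 in young and 34.1% of 15855 in aged mice were higher in ISC at this FDR. The largest values in young mice were those of *Gkn3*, a gastrokine, at 5.22 ± 1.11 (FDR = 0.00487), *Slc12a2*, the sodium, potassium and chloride cotransporter, at 4.45 ± 0.67 (FDR = 9.69e-04), the ephrin receptor *Ephb3* at 4.35 ± 0.46 (FDR = 2.76e-04) and the water channel *Aqp4* at 4.30 ± 0.64 (FDR = 9.35e-04). At the other end stood *Nrn1*, for neuritin, at 2.25 ± 0.31 (FDR = 7.38e-04) and *Rnf43*, a ubiquitin ligase that removes Wnt receptors, at 1.66 ± 0.22 (FDR = 6.22e-04). *Rnf32* was at 0.58 ± 0.21 (FDR = 0.050, just above the threshold) and *Sp5*, a transcription factor that Wnt induces, at -0.16 ± 0.26 (FDR = 0.623). *Sp5* was found at 23.2 ± 2.37 CPM (SD, n = 3) in ISC of young mice, where AE had 25.8 ± 9.18 CPM. With age, 0 of the 18 and 0% of all genes tested were called in ISC or in AE, with medians of the 18 at 0.065 and -0.45. The lowest of them in aged over young ISC was *Nrn1*, at -1.73 ± 0.35 (FDR = 0.594). It had 18.1 ± 0.917 CPM (SD, n = 3) in young and 5.39 ± 2.53 CPM in aged ISC, and 3.89 ± 1.39 and 0.712 ± 0.467 CPM in young and aged AE. Aged and young libraries did not overlap for this gene in either cell type. In AE this rested on few counts, 7, 3 and 11 in O1, O3 and O5, with O3 at the limit of detection. In ISC, 2 other genes of the 18 did not overlap, *Sp5*, at 0.43 ± 0.14 with 23.2 ± 2.37 CPM in young and 31.1 ± 1.53 CPM in aged ISC, and *Rnf32*, at 0.36 ± 0.15 with 20.1 ± 2.12 and 25.8 ± 0.416 CPM, both higher in aged ISC. In AE, *Rnf43* was the other such gene, at 0.37 ± 0.17. Over all genes tested the groups did not overlap for 8.86% in ISC and 10.9% in AE.

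Genes with the profile most like that of a marker were sought as the smallest root mean square distance over the 12 libraries between log2(CPM + 0.5) values centred on their mean, among 17353 other genes. For *Lgr5* these were *Prelp*, which encodes a leucine-rich matrix protein (distance 0.284), the predicted gene *Gm830* (0.374), *Olfm4* (0.439), *Slc12a2* (0.443) and *Smoc2* (0.473). *Ascl2* was the sixth and *Tnfrsf19* the eighth. For *Olfm4* they were *Prelp* (0.365), *Lgr5* (0.439), *Smoc2* (0.581), *Clca3b* (0.599) and *Slc12a2* (0.631). *Mex3a* took rank 66 from *Lgr5*, and *Cd44*, *Msi1*, *Sox9* and *Prom1* took ranks 351, 361, 424 and 797. *Prelp* had means of 164 and 147 CPM in young and aged ISC and of 5.3 and 1.85 CPM in young and aged AE. The 12 points fall into ISC and AE, so that a small distance says mainly that a gene drops between them by as much.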

How the data were processed

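RNAseq libraries of sorted ISC and AE were 50 bp single-end. The authors trimmed the reads with Trim Galore 0.4.4, mapped them to GRCm38 with HISAT2 2.1.0 and counted uniquely mapped reads over the merged exons of each gene in SeqMonk. The deposited values used here are these raw counts. The annotation release is not given in the sources used here, and whether counting used strand is not stated; 8 of the 10 genes overlap another annotated gene. A deposited table of 49 other genes, with log2 values and the authors' own test results, was not used. In 8 of 12 sample titles the code and the description name different groups, so each column was assigned to the group its own name spells.

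Genes with at least 10 counts in total over the libraries of a fit entered, after TMM scaling, edgeR 4.0.16 (glmQLFit and glmQLFTest in R 4.3.3), with Benjamini-Hochberg adjustment over all genes tested and a threshold of 0.05, after tests on simulated data. The members and lists were chosen with earlier results of these data known. Genes named are the 10 members, the 4 highest and 4 lowest of the companion list, the 2 most abundant genes of other marker lists, and the 5 nearest profiles of *Lgr5* and *Olfm4*. Alternatives were DESeq2 1.42.0, other scaling and filters, a joint fit, a replicate block for comparisons of ISC with AE, and fits without 1 library. Thinning of Y3 AE was chosen after seeing the data. Deviations from the group mean in ISC and in AE correlated over genes within a code, at 0.231 to 0.45 for 6 of 6 codes, and at -0.425 to 0.145 in the 12 pairs of unlike codes of an age. Lengths are from GENCODE M21 (GRCm38), over transcripts inside the gene as counted. Exact permutation of 3 against 3 libraries cannot give P under 0.1 and was not used.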

Additional observations from a re-analysis of the deposited data

How the results depend on the processing

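Under every alternative run, 10 of the 10 markers were called as higher in ISC than in AE at both ages, and 0 were called with age. *Lgr5*, which chose the ISC, is among them, and its difference is given only as a description. For young mice the FDR (edgeR or DESeq2) ran from 2.96e-17, for *Lgr5*, to 0.0354. The lowest such FDR of another member was 1.76e-12, for *Mex3a*. FDR ran from 5.27e-147 to 6.67e-05 for aged mice, 0.83 to 1.00 for age in ISC and 0.161 to 1.00 for age in AE. Counts over all genes moved more. Calls with age in ISC, 0 in the main test, were 58 with DESeq2, 1 without a filter and 2 in a fit on all 4 groups. In AE, also 0, they were 18 with DESeq2 and 2 without a filter. For the difference of age effects, 1 call became 43 with DESeq2 and 21 with the replicate block, which changed no call of a member and, for ISC against AE, gave 8997 calls in place of 8864 in young and 10513 in place of 10163 in aged mice. With single libraries left out, calls were 0 to 1 in ISC, 0 to 1 in AE and 0 to 3 for the difference. The age effect of 6 markers in ISC changed sign in this way, over ranges of -0.23 to 0.096 for *Olfm4*, -0.045 to 0.12 for *Smoc2*, -0.46 to 0.19 for *Tnfrsf19*, -0.091 to 0.17 for *Cd44*, -0.13 to 0.24 for *Sox9* and -0.27 to 0.34 for *Msi1*. *Mex3a* in AE ranged from -0.91 to 0.40, and the difference of age effects from -0.39 to 1.22 for *Mex3a* and from -0.60 to 6.14 for *Tnfrsf19*, the last 3 changing sign without Y2 AE only. *Ascl2*, *Mex3a* and *Tnfrsf19* did not pass filterByExpr in AE. Few counts in AE limit *Tnfrsf19*, *Ascl2*, *Mex3a* and *Lgr5*. With Y3 AE thinned to the median depth, the median of the markers for age in AE was -1.43. The cause of these shifts was not tested.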
